A study of Mus musculus with 8 samples.

Results

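The EGF receptor family and its ligands were followed in mouse skin epithelium that had lost either the histone acetyltransferase MOF or its partner Kansl1. The 10 genes were taken by symbol from 23432 gene symbols in the count files: 3 receptors (Egfr, Erbb2, Erbb3), 6 ligands (Areg, Ereg, Epgn, Hbegf, Tgfa, Btc) and Errfi1, an inhibitor of the receptors inside the cell. RNA-seq was available for 8 libraries in 4 groups of 2. At the embryonic stage E16.5 the groups were control and MOF cKO (genotype MOFfl/fl/K14Cre), and just after birth, at P0.5, they were control and Kansl1 cKO (genotype Kansl1fl/fl/K14Cre). The labels call the control animals only Control. The study describes its controls as littermates, wildtype or heterozygous in the MOF line, and the alleles of each control library are not given in the sources used here. The Cre is driven by a keratin 14 promoter and so acts in skin epithelium, and the Kansl1 deletion removes a single exon. The mice were of mixed C57Bl/6J and CD-1 background and of either sex. E16.5 libraries were made from back skin cells sorted for the Krt14-H2BGFP reporter, which both E16.5 groups therefore carried, whereas P0.5 libraries were made from whole epidermis lifted off the dermis with Dispase. The study names an Illumina HiSeq as the sequencer of the E16.5 libraries and an Illumina NovaSeq as that of the P0.5 libraries. The files held 22484018 to 27561688 counts on genes per library at E16.5 and 9108709 to 19774643 at P0.5.

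EGF family ligands are made as membrane-anchored precursors that metalloproteases cut free at the cell surface. Most bind EGFR, which pairs with itself or with ERBB2 or ERBB3 and signals through RAS and the ERK kinases. ERBB2 has no known ligand of its own, and ERBB3 has little kinase activity and is bound by neuregulins. In skin the pathway drives keratinocyte growth, migration and wound repair, and it guides hair follicle formation. Errfi1, also called Mig6, binds the receptor kinase and turns it off, and it is itself switched on by the pathway.

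Epgn, Ereg, Areg and Btc lie close together on mouse chromosome 5 (GRCm38, mm10; GENCODE M21 positions), from chr5:91027464 to chr5:91402994, over 375.531 kb. Epgn (91027464-91035215), Ereg (91074622-91093646) and Areg (91139599-91148432) are on the plus strand and Btc (91357261-91402994) is on the minus strand. Tgfa lies on chromosome 6 (86195223-86275719, plus), Egfr (16752203-16918158, plus) and Erbb2 (98412470-98437716, plus) on chromosome 11, Erbb3 on chromosome 10 (128567523-128589652, minus) and Errfi1 on chromosome 4 (150853919-150868892, plus). All 10 members are protein-coding. Promoter windows of 250 bases before to 50 bases after the RefSeq start (GRCm38.p6) are shown for 3 genes of the chromosome 5 group, because Epgn and Areg had the largest fold changes of the family in MOF cKO and Btc the largest between the stages. Capitals mark matches, on either strand, to a CRE (TGACGTCA), a TATA box (TATAAA) or a GC box (GGGCGG or its complement); an AP-1 motif (TGANTCA) was searched as well.
Epgn, chr5:91027267-91027566, plus strand: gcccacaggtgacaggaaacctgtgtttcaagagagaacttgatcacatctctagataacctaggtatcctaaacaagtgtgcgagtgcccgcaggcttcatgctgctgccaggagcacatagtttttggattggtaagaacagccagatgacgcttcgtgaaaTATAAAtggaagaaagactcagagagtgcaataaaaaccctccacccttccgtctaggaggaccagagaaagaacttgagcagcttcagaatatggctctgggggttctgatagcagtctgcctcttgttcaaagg
Areg, chr5:91139349-91139648, plus strand: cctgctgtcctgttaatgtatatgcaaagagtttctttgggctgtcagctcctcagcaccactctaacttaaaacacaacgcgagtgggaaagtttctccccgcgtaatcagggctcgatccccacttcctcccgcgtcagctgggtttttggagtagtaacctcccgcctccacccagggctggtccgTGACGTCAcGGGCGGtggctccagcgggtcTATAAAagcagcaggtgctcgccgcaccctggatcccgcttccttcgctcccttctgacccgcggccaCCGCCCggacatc
Btc, chr5:91402945-91403244, minus strand: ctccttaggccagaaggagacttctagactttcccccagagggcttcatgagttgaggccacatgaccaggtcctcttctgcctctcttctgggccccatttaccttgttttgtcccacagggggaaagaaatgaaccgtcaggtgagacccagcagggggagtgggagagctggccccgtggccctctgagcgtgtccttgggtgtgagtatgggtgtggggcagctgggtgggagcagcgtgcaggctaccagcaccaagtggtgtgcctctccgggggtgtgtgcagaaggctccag

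The Areg window held a CRE whose first base is 61 bases before the start, a GC box at 52 bases before, a TATA box at 31 bases before and a GC box 38 bases after. The Epgn window held only a TATA box, 86 bases before the RefSeq start. The GENCODE start of Epgn (91027464) lies between that TATA box and the RefSeq start. The Btc window held none of the 4 motifs. Among 32851 RefSeq promoter windows of the same length, a CRE was found in 1.79%, a TATA box in 13.6%, a GC box in 35.7% and an AP-1 motif in 7.81%. Of the other members with a window, the second Errfi1 start also had a CRE, 51 bases before it, with a TATA box at 28 bases before and 3 GC boxes. The Tgfa window held 2 GC boxes, the Egfr window 1, and the Erbb2 window no match. No member window held the AP-1 letters.

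The targeted genes were checked before the family. Kat8, which encodes MOF, stood at 13.3 and 13.6 CPM (read counts scaled to library depth with TMM factors) in E16.5 control and at 11.5 and 12.8 CPM in MOF cKO, and its log2 fold change of -0.14 (SE 0.18) did not pass the test. Kansl1 stood at 43.4 and 51.8 CPM in P0.5 control and at 34.6 and 33.4 CPM in Kansl1 cKO, and the log2 fold change was -0.52 (SE 0.17; edgeR adjusted p = 0.24). Counts over whole genes do not resolve a deleted exon, so neither value checks the labels. The basal keratinocyte keratin Krt5 was present at 8967 to 19924 CPM in every library, so the labelled epithelium carried its defining marker. The libraries mixed sexes: Xist, made in female cells, was at 1394 CPM in E16.5 control replicate 1 and at 9.21 to 11.1 CPM in the other E16.5 libraries. At P0.5, control replicate 2 held 1.32 CPM of Xist and the other 3 libraries held 408 to 462 CPM. The part of sex in any difference was not tested.

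MOF cKO epithelium had more RNA of 4 of the 6 EGF receptor ligands than control at E16.5. Epgn rose 4.92-fold, Areg 4.82-fold, Hbegf 3.29-fold and Tgfa 2.85-fold, and the receptor Egfr and its inhibitor Errfi1 rose 1.72-fold and 1.70-fold. Thus 6 of the 10 members rose and 0 fell (edgeR quasi-likelihood test, Benjamini-Hochberg adjusted p of 0.01 or lower and a change over 1.5-fold). Of 13956 genes tested, 10% rose and 9.59% fell by the same rule. DESeq2 also called 6 members higher and 0 lower, against 13.0% and 12.4% of all genes. The median log2 fold change was 1.43 over the members and -0.02 over all genes tested. All 10 members had both MOF cKO libraries above both controls, as did 35.0% of all genes tested, while 37.7% had both below. In bulk samples, a change in the number of cells of a type and a change in RNA per cell cannot be told apart.

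Epgn encodes epigen, a ligand of EGFR. It stood at 11.0 and 7.28 CPM in the control libraries and at 41.9 and 48.3 CPM in the MOF cKO libraries. The groups were far apart, with a log2 fold change of 2.30 (SE 0.22; edgeR adjusted p = 0.000606). Areg encodes amphiregulin, which keratinocytes make as an autocrine growth factor. It was scarce, at 41 and 24 counts (1.23 and 0.801 CPM) in control and 81 and 156 counts (3.75 and 6.09 CPM) in MOF cKO. Its log2 fold change of 2.27 (SE 0.48; edgeR adjusted p = 0.00919) lay just inside the threshold. The call was lost without control replicate 2 (adjusted p = 0.0189) or without MOF cKO replicate 2 (adjusted p = 0.0337), and also with upper-quartile scaling factors (adjusted p = 0.0106), with libraries scaled by size alone (adjusted p = 0.0148) and in a fit of all 8 libraries (adjusted p = 0.0586).

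Hbegf, on chromosome 18 (36504927-36515805, minus strand), encodes heparin-binding EGF, which is released during wound closure. It stood at 13.9 and 15.0 CPM in control and at 38.8 and 56.0 CPM in MOF cKO. The control libraries nearly coincided while the MOF cKO libraries spread more widely, and the log2 fold change was 1.72 (SE 0.20; edgeR adjusted p = 0.000940). Tgfa encodes transforming growth factor alpha, a ligand whose loss gives mice a wavy coat. It stood at 12.7 and 12.2 CPM in control and at 30.7 and 40.1 CPM in MOF cKO, and the log2 fold change was 1.51 (SE 0.18; edgeR adjusted p = 0.00101). Both genes kept the call when any E16.5 library was left out.

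Ereg and Btc, which encode epiregulin and betacellulin, were near the limit of detection at E16.5. Control libraries held 18 and 20 counts of Ereg and MOF cKO libraries held 28 and 49, and its log2 fold change of 1.41 (SE 0.65) did not pass the test (edgeR adjusted p = 0.12). Control libraries held 14 and 15 counts of Btc and MOF cKO libraries held 14 and 48, so its log2 fold change of 1.45 (SE 0.78; edgeR adjusted p = 0.18) came mostly from MOF cKO replicate 2. A change of the size seen for Tgfa could not be told from none for either gene at this depth.

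Among the receptors, Egfr stood at 104 and 79.4 CPM in control and at 161 and 155 CPM in MOF cKO, and the log2 fold change was 0.78 (SE 0.14; edgeR adjusted p = 0.00556). The adjusted p of Egfr was 0.0130 without control replicate 2 and 0.0123 without MOF cKO replicate 1, so the call was lost in each. Erbb2, the shared partner receptor, went from 168 and 176 CPM to 216 and 239 CPM, and its log2 fold change of 0.40 (SE 0.11; edgeR adjusted p = 0.0207) did not pass. Erbb3 went from 81.8 and 88.3 CPM to 107 and 94.5 CPM, with a log2 fold change of 0.25 (SE 0.12; edgeR adjusted p = 0.13) that turned to -0.06 when libraries were scaled by size alone. Errfi1 stood at 65.3 and 63.2 CPM in control and at 103 and 115 CPM in MOF cKO, and the log2 fold change was 0.76 (SE 0.11; edgeR adjusted p = 0.00239). With libraries scaled by size alone the calls of Egfr (0.48, adjusted p = 0.0303) and Errfi1 (0.46, adjusted p = 0.0166) were lost, as they were in a fit of all 8 libraries (adjusted p = 0.0144 and 0.0220). Exons of Erbb2 overlap those of Mien1 on the other strand, and the strand setting of the counting is not given in the sources used here.

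**Figure D1:**
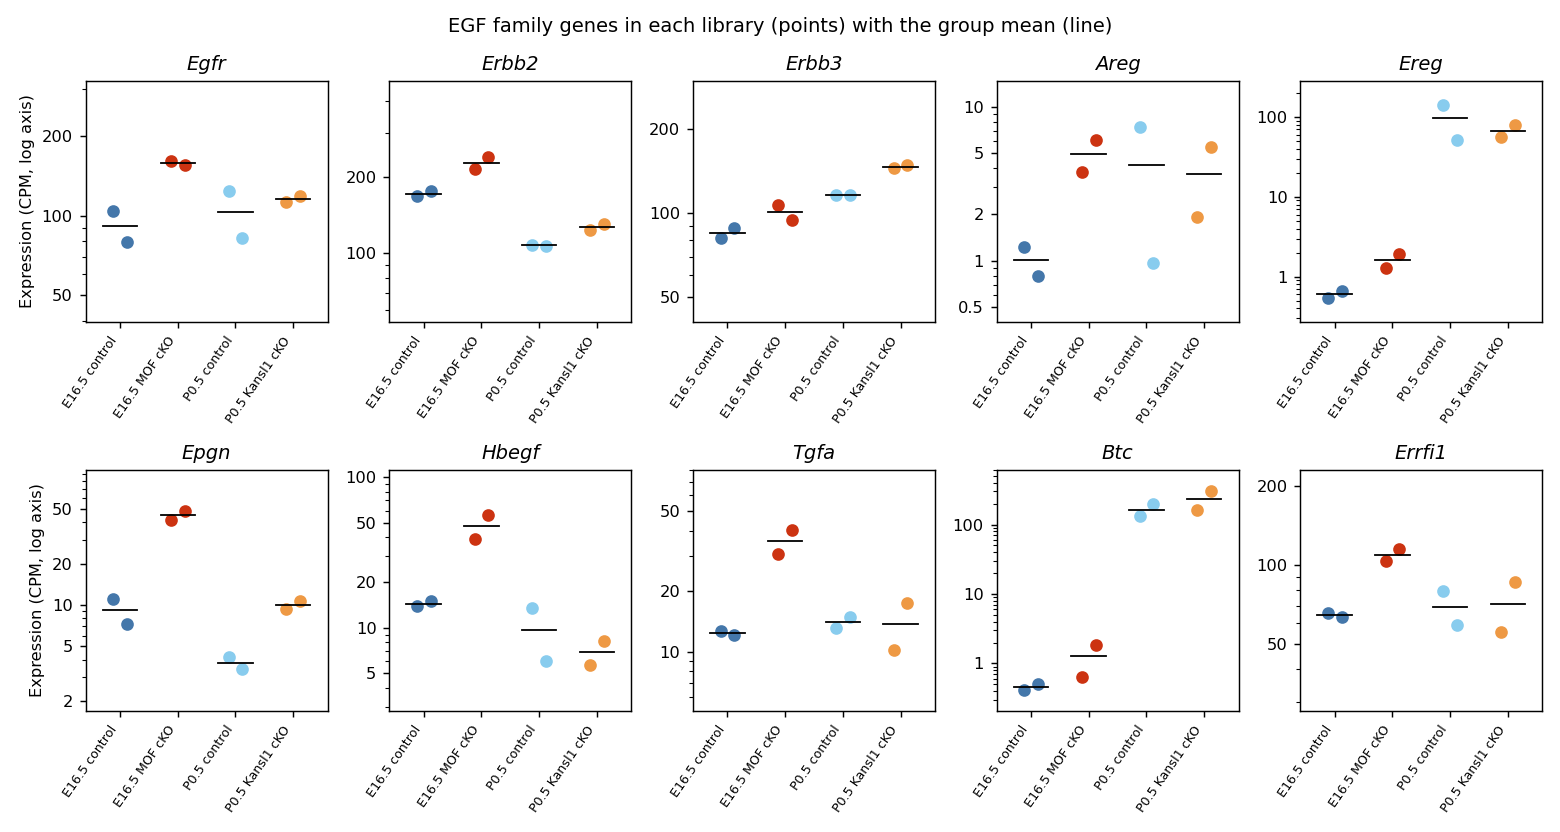
Expression of the 10 genes in CPM on log axes, 1 panel per gene, with a point for each of the 8 libraries and a line at each group's mean (n = 2). In E16.5 MOF cKO both points sit above both E16.5 control points in every panel, and Ereg and Btc rise from under 2 CPM at E16.5 to over 50 CPM at P0.5.

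In Kansl1 cKO epidermis at P0.5, 0 of the 10 members passed the test, and neither did any of the 13031 genes tested (0% in each direction; smallest edgeR adjusted p = 0.11). At an unadjusted p under 0.05, 968 genes (7.43%) were higher and 1077 (8.26%) lower, and DESeq2 called 34 higher (0.261%) and 63 lower (0.483%). Epgn had the largest fold change of the family, at 4.16 and 3.41 CPM in control and 9.32 and 10.7 CPM in Kansl1 cKO. Its groups did not overlap, and its log2 fold change was 1.38 (SE 0.28; edgeR adjusted p = 0.18, DESeq2 adjusted p = 0.0291). Erbb3 and Erbb2 were the only other members without overlap, whereas 28.8% of all genes tested had both Kansl1 cKO libraries higher and 20.6% both lower. Erbb3 stood at 116 in each control library and at 145 and 148 CPM in Kansl1 cKO, and the log2 fold change was 0.31 (SE 0.15; edgeR adjusted p = 0.38). Erbb2 stood at 108 and 107 CPM in control and at 124 and 130 CPM in Kansl1 cKO, and the log2 fold change was 0.21 (SE 0.15; edgeR adjusted p = 0.54).

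The other members overlapped between the P0.5 groups. Areg was at 7.34 and 0.974 CPM in control and at 1.92 and 5.44 CPM in Kansl1 cKO, so the spread within each group exceeded the difference between them. Hbegf was at 13.5 and 5.98 CPM in control and at 5.65 and 8.20 CPM in Kansl1 cKO. Ereg was at 142 and 51.3 CPM in control and at 55.8 and 79.2 CPM in Kansl1 cKO. In all 3 genes the shallowest library, control replicate 1, was the highest of the 4, and without it the log2 fold changes turned from -0.17 to 1.84 for Areg, from -0.51 to 0.17 for Hbegf and from -0.55 to 0.37 for Ereg, with no call either way. That library also had the most RNA of the suprabasal keratin Krt1, at 37793 CPM against 19454 CPM in control replicate 2 and 22528 and 33870 CPM in Kansl1 cKO. Krt10, Krtdap and Lor were highest in Kansl1 cKO replicate 2 and the rest of the suprabasal list in control replicate 1. The suprabasal sums were 83079 and 47273 CPM in control and 49357 and 81418 CPM in Kansl1 cKO. Stressed keratinocyte markers of control replicate 1 summed to 2797 CPM against 1206 CPM in control replicate 2 and 1844 and 1820 CPM in Kansl1 cKO. One of them, the stress keratin Krt16, was at 1192 CPM against 142 CPM in control replicate 2 and 297 and 493 CPM in Kansl1 cKO. Krt17, the most abundant of the list, was instead lowest in control replicate 1. It stood there at 906 CPM, against 999.9 CPM in control replicate 2 and 1359 and 988 CPM in Kansl1 cKO. The part of these in the ligand values was not tested. Btc was at 132 and 196 CPM in control and at 163 and 307 CPM in Kansl1 cKO, and the log2 fold change was 0.49 (SE 0.33). Tgfa was at 13.1 and 15.0 CPM in control and at 10.2 and 17.4 CPM in Kansl1 cKO, Egfr at 124 and 82.4 against 113 and 119 CPM, and Errfi1 at 79.7 and 58.8 against 55.7 and 86.1 CPM, with log2 fold changes of -0.07 (SE 0.29), 0.14 (SE 0.22) and 0.00 (SE 0.26).

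Whether the knockouts differed in their effect was tested directly in a fit of all 8 libraries. No member passed at an adjusted p of 0.01, where 1.76% of 14565 genes had a higher and 1.17% a lower MOF effect. At an adjusted p of 0.05, which 7.04% of genes passed as higher and 6.76% as lower, the MOF effect exceeded the Kansl1 effect for Hbegf by 2.18 on the log2 scale (SE 0.50; edgeR adjusted p = 0.0239) and for Tgfa by 1.55 (SE 0.37; edgeR adjusted p = 0.0269). Both exceeded that 0.05 threshold without E16.5 control replicate 1 (adjusted p = 0.0694 and 0.0722), without MOF cKO replicate 2 (0.0539 and 0.0541), without P0.5 control replicate 1 (0.0617 and 0.0560) and without Kansl1 cKO replicate 1 (0.0705 and 0.0642), and Tgfa also without E16.5 control replicate 2 (0.0554) or P0.5 control replicate 2 (0.0548). For Epgn the difference was 0.89 (SE 0.35; edgeR adjusted p = 0.12), for Areg 2.41 (SE 1.15; edgeR adjusted p = 0.19) and for Ereg 1.93 (SE 0.73; edgeR adjusted p = 0.11). The remaining differences were 0.97 for Btc, 0.73 for Errfi1, 0.61 for Egfr, 0.17 for Erbb2 and -0.09 for Erbb3, and none of these passed. Leaving out 1 library moved several of these widely. Without P0.5 control replicate 1 the difference was 0.38 for Areg, 1.02 for Ereg and 0.29 for Egfr, and the highest values with another library left out were 3.32, 2.48 and 0.87. That of Btc fell as low as 0.12 (without MOF cKO replicate 2) and that of Errfi1 ranged from 0.44 (without Kansl1 cKO replicate 1) to 1.06. DESeq2 called 3 members higher at its 0.01 threshold, Ereg, Hbegf and Tgfa, against 6.70% of genes higher and 3.56% lower. In the same edgeR fit at 0.01, 7 of 14 macrophage, 2 of 7 stressed keratinocyte, 1 of 7 suprabasal and 1 of 8 fibroblast markers had a higher MOF effect. Of 6 hair follicle markers 2 had a lower one, and no marker of the remaining lists passed. The part of these in the ligand differences was not tested. The gene deleted, the age, the way the cells were collected and the sequencer changed together between the experiments and cannot be told apart.

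**Figure D2:**
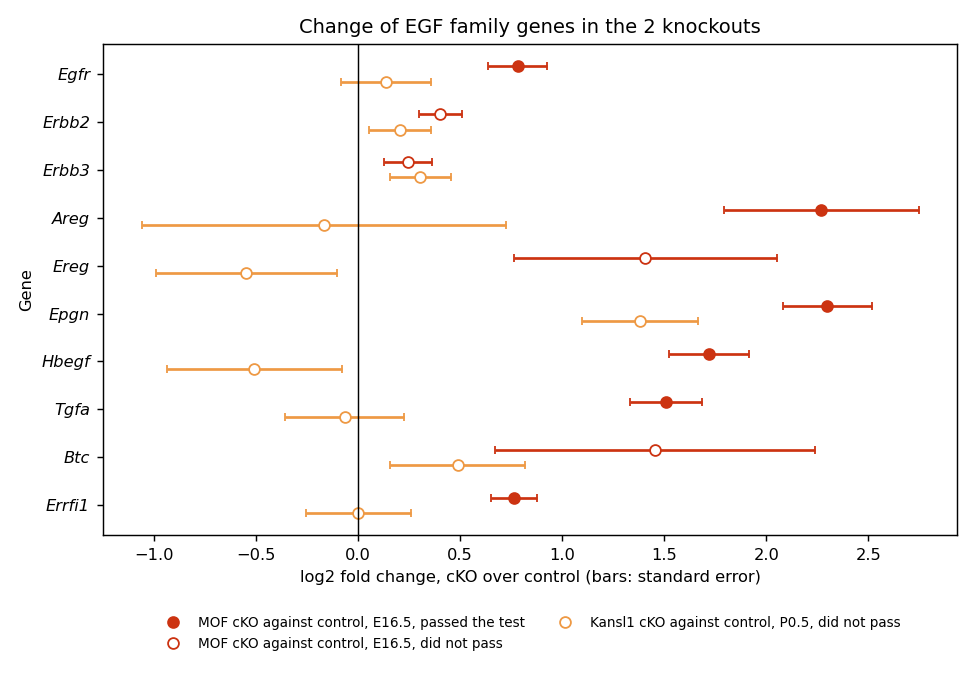
The log2 fold change of each gene in knockout over control on the horizontal axis, with bars of 1 standard error, for MOF cKO at E16.5 (red) and Kansl1 cKO at P0.5 (orange), n = 2 libraries per group. Filled points passed the test: 6 genes in MOF cKO, from 0.76 for Errfi1 to 2.30 for Epgn, and 0 in Kansl1 cKO, where Epgn stood farthest from zero at 1.38.

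The wider pathway was read from 5 lists that together held 55 genes. In MOF cKO, 7 of the 52 tested rose and 1 fell, where 10% of all genes tested were called higher and 9.59% lower, with a median log2 fold change of 0.17 against -0.02 for all genes. Among other ErbB receptors and ligands, 1 of 3 tested rose. This was Nrg1, which encodes neuregulin 1, a ligand of ERBB3 and ERBB4, at 0.330 and 0.334 CPM in control and 4.63 and 5.86 CPM in MOF cKO (log2 fold change 3.96, SE 0.48; edgeR adjusted p = 0.0011). Of 10 shedding genes, 3 rose and 0 fell. They were Adam8, a metalloprotease (log2 fold change 2.12, SE 0.25), and Rhbdf1 and Rhbdf2, the iRhom proteins that carry ADAM17 to the surface (1.41, SE 0.13, and 1.33, SE 0.26). Rhbdf1 went from 100.2 and 112 CPM to 253 and 310 CPM. The sheddases Adam10 and Adam17 had log2 fold changes of 0.15 (SE 0.17) and 0.20 (SE 0.11), and neither passed.

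Of 17 adaptor and ERK cascade genes, 1 rose and 1 fell in MOF cKO, where 10% of all genes tested were called higher and 9.59% lower. Hras1, a RAS gene, had a log2 fold change of 0.74 (SE 0.10) and Mapk3, which encodes ERK1, one of -0.79 (SE 0.14). None of the 16 receptor turnover and feedback genes passed, the farthest being Lrig1, a transmembrane inhibitor of the receptors, at -0.50 (SE 0.11; edgeR adjusted p = 0.0120) and Spry1 at 0.40 (SE 0.13). Of 10 genes often read as transcriptional output of ERK, 2 rose and 0 fell. Etv4, an ETS factor, went from 52.8 and 63.1 CPM to 203 and 224 CPM (log2 fold change 1.88, SE 0.13; edgeR adjusted p = 0.00025), and Epha2, an ephrin receptor, had a log2 fold change of 0.96 (SE 0.16). The other 8 did not pass, among them Dusp6 at -0.11 (SE 0.12), Spry4 at 0.19 (SE 0.24) and Ccnd1, which encodes cyclin D1, at -0.97 (SE 0.47; edgeR adjusted p = 0.14). Ccnd1 spread widely within each group, from 96.5 to 180 CPM in control and from 36.2 to 104 CPM in MOF cKO. In Kansl1 cKO, 0 of 52 genes passed and the median log2 fold change was 0.14. There the 2 farthest genes of the readout list were Etv5 at 0.83 (SE 0.27) and Spry4 at 0.67 (SE 0.53). The farthest in the other lists were Egf at -2.35 (SE 0.85) and Nrg4 at 1.27 (SE 0.48), Adam8 at -1.17 (SE 0.52) and Rhbdf2 at 0.27 (SE 0.17), Sos2 at 0.55 (SE 0.17) and Plcg1 at 0.45 (SE 0.19), and, with Spry4, Dusp4 at 0.60 (SE 0.25).

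**Figure D3:**
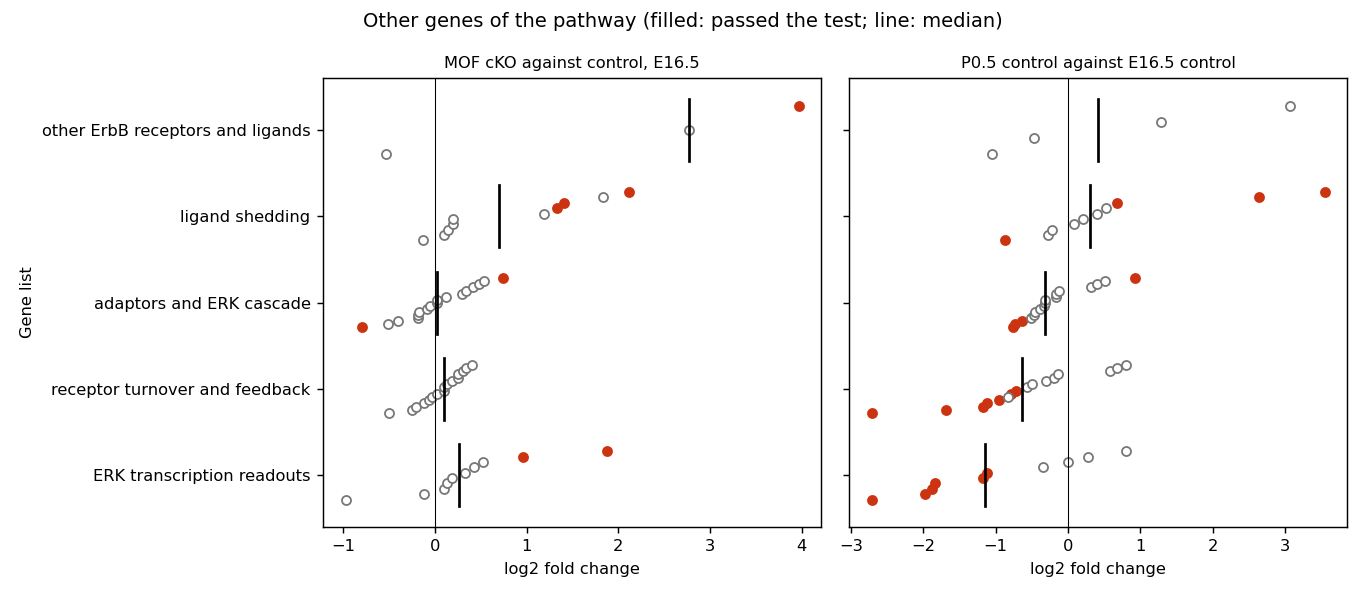
The log2 fold change of every tested gene of the 5 pathway lists, in MOF cKO against control at E16.5 (left) and in P0.5 control against E16.5 control (right), where filled points passed the test and the vertical lines mark list medians. Shedding genes lean to the right in MOF cKO with a median of 0.70, and ERK readouts lean to the left at P0.5 with a median of -1.14.

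Genes of other cell types and states moved in the same E16.5 libraries. Of 7 stressed keratinocyte markers, 5 rose in MOF cKO, and their summed level went from 1494 and 2094 CPM to 5382 and 6694 CPM. The most abundant of them, Krt17, did not pass at 0.57 (SE 0.20), while Krt6a went from 13.9 and 15.6 CPM to 1334 and 1374 CPM. Of 7 suprabasal markers 5 rose, with sums of 3883 and 3160 CPM in control and 8526 and 9337 CPM in MOF cKO, and Krt1 rose by 1.67 on the log2 scale (SE 0.13). Krt1 was the most abundant of them over all 8 libraries, while Krt10 was the more abundant in both E16.5 controls, at 2069 and 1677 CPM against 1423 and 1161 CPM of Krt1. Of 14 macrophage markers 7 rose, with sums of 21.3 and 44.6 CPM in control and 103 and 135 CPM in MOF cKO. The most abundant macrophage gene over all libraries, Csf1r, was at 0.180 and 0.835 CPM in control and 9.50 and 10.7 CPM in MOF cKO, and Tyrobp was at 0 in control replicate 2. Cd68 led the list in all 4 E16.5 libraries, at 16.6 and 38.5 CPM in control and 21.2 and 47.8 CPM in MOF cKO, so it made up most of the control sums, overlapped between the groups and did not pass (log2 fold change 0.33, SE 0.45). Of 6 hair follicle markers 4 fell, with sums of 351 and 549 CPM in control and 170.1 and 199 CPM in MOF cKO, Edar being the most abundant. Of 6 endothelial markers 1 rose (Pecam1, the most abundant), with sums of 6.20 and 6.85 against 13.2 and 23.6 CPM, and of 3 tested mast cell and T cell markers 1 rose (Mcpt4), with list sums of 13.5 and 10.8 against 16.9 and 38.5 CPM. Kit led that list over all 8 libraries but Cpa3 did in 3 of the 4 E16.5 libraries. None of the 6 basal, 8 fibroblast, 6 melanocyte or 5 tested Schwann cell markers passed. Fibroblast sums were 843 and 1438 CPM in control and 1428 and 1987 CPM in MOF cKO, and 7 of the 8 had a log2 fold change above 0. Dcn, the most abundant over all 8 libraries, was the exception, at 455 and 471 CPM in control and 379 and 372 CPM in MOF cKO, where Col3a1 exceeded it at 385 and 663 CPM. The most abundant melanocyte gene over all libraries, Dct, was at 7.52 and 21.5 CPM in E16.5 control and 5.88 and 27.0 CPM in MOF cKO, and the most abundant Schwann cell gene, Sox10, at 0.539 and 4.51 CPM and at 3.61 and 9.29 CPM. The part of these cells and states in the rise of the ligands was not tested. In Kansl1 cKO no gene of the 10 marker lists passed. The P0.5 sums of melanocyte markers were 492 and 547 CPM in control and 1079 and 1208 CPM in Kansl1 cKO, those of macrophage markers 236 and 278 against 364 and 387 CPM, and those of fibroblast markers 1870 and 1176 against 1018 and 807 CPM. Within the fibroblast list Dcn went up, from 317 and 427 CPM to 661 and 428 CPM. Hair follicle sums were 223 and 270 against 405 and 279 CPM. Mast cell and T cell sums were 61.9 and 67.9 against 146 and 107 CPM. Schwann cell sums were 19.7 and 30.7 against 60.9 and 47.0 CPM. Endothelial sums were 8.32 and 3.06 against 1.70 and 1.29 CPM. The sums of the other marker lists overlapped between the groups. The part of these in the Epgn values at P0.5 was not tested.

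Between the 2 control groups, Btc and Ereg were scarce at E16.5 and abundant at P0.5. Btc went from 0.419 and 0.501 CPM at E16.5 to 132 and 196 CPM at P0.5 (log2 fold change 8.47, SE 0.53; edgeR adjusted p = 3.92e-06). Ereg went from 0.539 and 0.668 CPM to 142 and 51.3 CPM (log2 fold change 7.31, SE 0.56; edgeR adjusted p = 1.13e-05). Epgn and Erbb2 were lower at P0.5, with log2 fold changes of -1.29 (SE 0.26; edgeR adjusted p = 0.00248) and -0.68 (SE 0.12; edgeR adjusted p = 0.00126). Neither of these 2 calls was kept when the 4 control libraries were fitted alone, at -1.17 (adjusted p = 0.0186) for Epgn and at -0.56, under the fold threshold, for Erbb2. Leaving out E16.5 control replicate 1 ended both calls (adjusted p = 0.0190 for Epgn and 0.0104 for Erbb2), leaving out P0.5 control replicate 2 ended that of Epgn (adjusted p = 0.0247), and leaving out E16.5 control replicate 2 or MOF cKO replicate 2 ended that of Erbb2 (-0.54 and -0.57). Areg was called higher under a filter of 1 count (2.06, adjusted p = 0.00428) and without P0.5 control replicate 2 (2.84, adjusted p = 0.00714), and it stood at -0.061 without replicate 1. Erbb3 was higher by 0.45 (SE 0.12; edgeR adjusted p = 0.0124) and did not pass, and Areg, Hbegf, Tgfa, Egfr and Errfi1 did not pass either. So 2 of 10 members were called higher and 2 lower, where 19.6% and 20.6% of 14565 genes were. DESeq2 called 2 higher and 1 lower, against 24.2% and 18.6% of genes. The P0.5 libraries lay above both E16.5 libraries for 4 members and below for 3, and for 36.4% and 44.1% of all genes. Stage, sorted cells against whole epidermis, sequencer and depth cannot be told apart here.

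Of the pathway genes outside the family, 4 of 53 tested were higher and 14 lower in P0.5 control, where 19.6% of all genes were called higher and 20.6% lower. Over 7 alternative settings, 2 to 6 pathway genes were higher and 12 to 22 lower, while 2144 to 3525 of all genes were higher and 2490 to 4375 lower. The largest count of all genes lower came with libraries scaled by size alone. The adaptor list then had 2 to 8 genes lower, and the turnover and feedback list had 6 to 10. The ERK readout list had 6 of 10 lower and 0 higher, led by Spry4, a feedback inhibitor (log2 fold change -2.71, SE 0.40), Etv4 (-1.97, SE 0.37), Epha2 (-1.88, SE 0.19) and Etv5 (-1.84, SE 0.24). The turnover and feedback list had 7 of 16 lower, among them Socs3 (-1.69, SE 0.16), Spry2 (-1.18, SE 0.25) and Dusp6 (-1.11, SE 0.23), and it shares Spry2, Spry4, Dusp4 and Dusp6 with the readout list. Adam19 (3.55, SE 0.44), Adam12 (2.64, SE 0.61) and Adam17 (0.68, SE 0.13) were higher and Rhbdf1 (-0.88, SE 0.17) lower. In the adaptor list Mapk3 (0.92, SE 0.16) was higher, and Plcg1 (-0.76, SE 0.16), Ptpn11 (-0.73, SE 0.13) and Grb2 (-0.63, SE 0.15) were lower. None of the 4 tested genes among other ErbB receptors and ligands passed, the farthest being Nrg4 at 3.08 (SE 0.86) and Egf at 1.29 (SE 1.15). All 7 suprabasal markers were higher at P0.5, with sums of 83079 and 47273 CPM in control, as were 13 of 14 macrophage and 6 of 6 melanocyte markers, with sums of 236 and 278 CPM and of 492 and 547 CPM. Of 6 basal markers 3 were lower, and of 7 stressed keratinocyte markers 3 were higher and 1 lower. One of 6 hair follicle markers was lower, and 3 of 5 mast cell and T cell, 1 of 8 fibroblast, 1 of 5 Schwann cell and 0 of 6 endothelial markers were higher. The part of cell makeup in the stage difference was not tested.

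Levels were compared between genes per kb of exon. The summed level of the 6 ligands was 11.0 ± 1.56 CPM per kb (SD, n = 2) in E16.5 control, 44.9 ± 7.70 in MOF cKO, 69.4 ± 10.3 in P0.5 control and 80.6 ± 30.3 in Kansl1 cKO. The makeup differed by stage. Epgn, Hbegf and Tgfa together gave 89.8 to 90.6% of the sum in E16.5 control and 88.3 to 91.0% in MOF cKO, but 8.74 to 9.27% in P0.5 control and 10.1 to 13.4% in Kansl1 cKO. Btc and Ereg gave 1.84 to 2.75%, 1.16 to 1.74%, 82.9 to 90.0% and 84.0 to 85.5% in the same order. At E16.5 the share of Epgn, Hbegf and Tgfa overlapped between control and MOF cKO, while that of Btc and Ereg was lower in both MOF cKO libraries and that of Epgn alone was higher, at 53.1 and 58.7% against 40.6 and 50.1%. These shares are a description with no test.

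**Figure D4:**
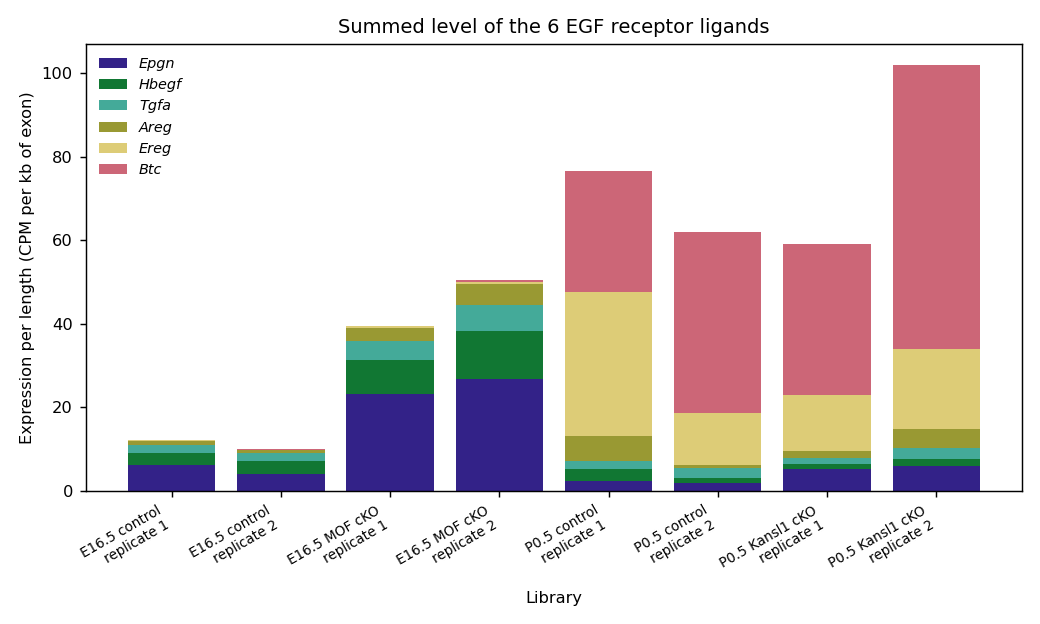
Stacked bars of the 6 ligands in CPM per kb of exon, 1 bar per library. The E16.5 bars are mostly Epgn, Hbegf and Tgfa and are taller in both MOF cKO libraries, and the P0.5 bars are mostly Btc and Ereg.

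Epgn was the most abundant ligand per length in E16.5 control, at 5.06 ± 1.45 CPM per kb (SD, n = 2), followed by Hbegf at 2.98 ± 0.159, Tgfa at 1.91 ± 0.0563, Areg at 0.835 ± 0.248, Ereg at 0.146 ± 0.0220 and Btc at 0.102 ± 0.0127. In MOF cKO the order was Epgn at 24.97 ± 2.51, Hbegf at 9.81 ± 2.51, Tgfa at 5.45 ± 1.02, Areg at 4.05 ± 1.36, Ereg at 0.389 ± 0.106 and Btc at 0.279 ± 0.192. There the ranges of Tgfa and Areg overlapped across the libraries, as did those of Ereg and Btc. Within each MOF cKO library Tgfa exceeded Areg and Ereg exceeded Btc. In P0.5 control Btc led at 36.3 ± 10.1 CPM per kb, with Ereg at 23.4 ± 15.5 within its spread, and the other 4 ligands lay between 2.01 and 3.42. In Kansl1 cKO Btc was at 52.1 ± 22.5, Ereg at 16.4 ± 4.02, Epgn at 5.54 ± 0.541, Areg at 3.03 ± 2.05, Tgfa at 2.13 ± 0.785 and Hbegf at 1.43 ± 0.374. Of the receptors, Erbb2 was the most abundant at E16.5, at 33.0 ± 1.02 CPM per kb in control and 43.7 ± 3.14 in MOF cKO, above Erbb3 at 14.1 ± 0.769 and 16.8 ± 1.51 and Egfr at 8.09 ± 1.53 and 13.96 ± 0.398. At P0.5 Erbb2 and Erbb3 were close, at 20.7 ± 0.0812 and 19.3 ± 0.0413 in control and 24.4 ± 0.911 and 24.4 ± 0.399 in Kansl1 cKO, with Egfr at 9.09 ± 2.57 and 10.2 ± 0.355. Errfi1 was at 17.9 ± 0.407, 30.5 ± 2.36, 19.3 ± 4.12 and 19.8 ± 6.0 in the 4 groups.

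The chromosome 5 neighbours were read as a block. Epgn and Areg rose in MOF cKO, and Ereg and Btc did not pass. The Areg call was lost in several settings, among them upper-quartile factors, size alone and a fit of all 8 libraries. The flanking genes Mthfd2l and Parm1 had log2 fold changes of 0.26 (SE 0.26) and -0.00 (SE 0.18) in MOF cKO, 0.43 (SE 0.28) and 0.64 (SE 0.19) in Kansl1 cKO and -0.06 (SE 0.29) and -0.26 (SE 0.18) between the stages, and none passed. Mthfd2l encodes a mitochondrial folate enzyme. Gm19619, a lincRNA between Areg and Btc, had no count in 7 of the 8 libraries. Between the stages Ereg and Btc were higher and Epgn lower, though the Epgn call was lost with the 4 control libraries alone (adjusted p = 0.0186), without E16.5 control replicate 1 (0.0190) and without P0.5 control replicate 2 (0.0247).

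**Figure D5:**
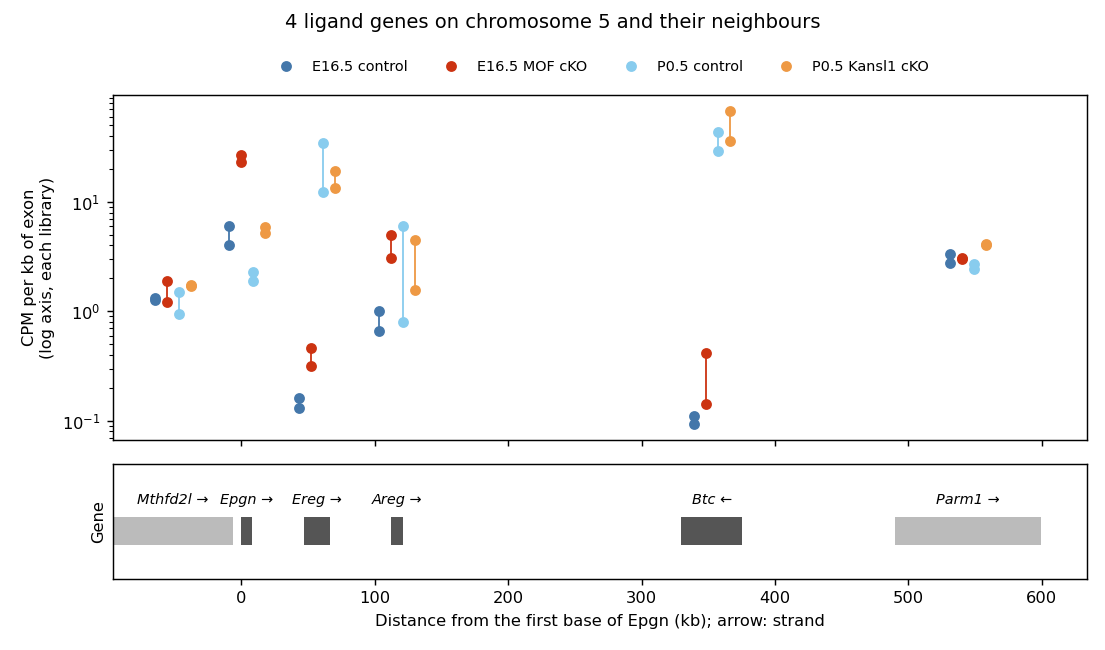
Upper panel, level of each gene in CPM per kb of exon on a log axis, with 1 point per library joined within each group of 2; lower panel, the genes at their distance in kb from the first base of Epgn, members in dark grey and flanking genes in light grey, with arrows for strand. Epgn is highest in MOF cKO, Ereg and Btc are highest at P0.5, and Mthfd2l and Parm1 stay between 0.9 and 5 CPM per kb in all libraries.

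For the receptor and the ligand of highest level per length in E16.5 control, the genes with the most similar pattern were sought by Pearson correlation of log2 CPM over the 8 libraries among 14564 genes. Erbb2 was most like Acvr1, Snord100 and Ccnl2 (r = 0.998 for each). Epgn was most like Smad1 (r = 0.989), Mlf2 (r = 0.989) and Srrm4 (r = 0.988). The 8 libraries fall in 4 groups of differing stage, isolation, sequencer and depth, so these values describe group patterns.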

How the data were processed

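The authors deposited whole-number read counts per gene, 1 file for each of the 8 libraries, with no normalization. Paired reads from a strand-marking kit were aligned to mm10 and counted with HTSeq-count. The study's methods name HISAT2 as the aligner and the submitters' processing notes name TopHat2; annotation and strand setting are not given in the sources used here. Rows naming no gene held 21.1 to 26.0% of each file and were left out. One count was worth 0.0300 to 0.122 CPM.

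Counts were tested with edgeR 4.0.16 (filterByExpr, TMM, quasi-likelihood test, Benjamini-Hochberg over all genes tested) in R 4.3.3 with limma 3.58.1. A gene was called where its adjusted p did not exceed 0.01 and its change exceeded 1.5-fold. Each knockout was fitted with its own 4 libraries. The difference of effects and the stage comparison came from a fit of all 8. CPM levels used 1 TMM scaling of the 8 libraries, and exon lengths came from GENCODE M21, where 92.9% of symbols matched. DESeq2 1.42.0, other scalings, filters and thresholds, leaving out each library, and a replicate block were alternatives.

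The 10 members and the lists were chosen with earlier results of these data known. All members and called list genes (at most 4 in each direction by size, or the farthest 2 where none was called) were named, with the targeted genes, cluster neighbours, most similar genes and the most abundant gene of each marker list. Adam10, Adam17, Krt6a, Krt16, Krt10, Krtdap, Lor, Cd68, Cpa3, Mcpt4, Col3a1, Tyrobp, Krt5, Ccnd1, Dusp6, Spry4 and the sex genes were named for context after their values were seen. Nothing in the labels says that replicates were separate litters, so p-values measure the spread between these samples.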

Additional observations from a re-analysis of the deposited data

Results flagged for a closer look

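The effect of MOF deletion at E16.5 differed from that of Kansl1 deletion at P0.5 for 2 ligands when the difference itself was tested at an adjusted p of 0.05. At that threshold 7.04% of 14565 genes had a higher and 6.76% a lower MOF effect. Hbegf was 2.18 higher on the log2 scale in the MOF effect (SE 0.50; edgeR adjusted p = 0.0239), with a log2 fold change of 1.72 in MOF cKO and -0.51 in Kansl1 cKO. Tgfa was 1.55 higher (SE 0.37; edgeR adjusted p = 0.0269), with 1.51 in MOF cKO and -0.07 in Kansl1 cKO. Neither passed at 0.01 in edgeR after filterByExpr, and both did in DESeq2 and in edgeR under a filter of 1 count. DESeq2 called 6.70% of all genes higher and 3.56% lower, and the filter of 1 count gave 1112 genes higher and 539 lower. When each library was left out in turn, the adjusted p of Hbegf ranged from 0.0070 (without P0.5 control replicate 2) to 0.0705 (without Kansl1 cKO replicate 1). It exceeded 0.05 also without E16.5 control replicate 1, MOF cKO replicate 2 or P0.5 control replicate 1, and without the last the difference was 1.52. That of Tgfa ranged from 0.0090 (without Kansl1 cKO replicate 2) to 0.0722 (without E16.5 control replicate 1). It stayed under 0.05 only without Kansl1 cKO replicate 2 and without MOF cKO replicate 1 (adjusted p = 0.0416), and without Kansl1 cKO replicate 1 the difference was 1.19. With a replicate block the adjusted p of Hbegf was 0.0727 and that of Tgfa 0.0483. Markers of other cell types and states passed in the same edgeR test at 0.01, among them 7 of 14 macrophage markers higher and 2 of 6 hair follicle markers lower. Their part was not tested. Deleted gene, age, cell collection and sequencer cannot be told apart.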

How the results depend on the processing

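In MOF cKO, Epgn, Hbegf and Tgfa kept their calls under every alternative run. The 6 members called higher became 3 with libraries scaled by size alone, a scaling that moved the median of all genes to -0.32, and 3 in a fit of all 8 libraries. The calls of Areg, Egfr and Errfi1 were lost in both, that of Areg with upper-quartile factors too (adjusted p = 0.0106), and leaving out a library gave 4 to 6. Pathway genes called higher went from 7 to 4 and lower from 1 to 3 with size alone, and lower to 2 under a filter of 1 count. Over 7 alternative settings, 2 to 3 shedding, 0 to 1 adaptor and 1 to 2 readout genes were called higher, so the Hras1 call was not always kept. In the same settings 1 to 2 adaptor, 0 to 1 turnover and feedback and 0 to 1 readout genes were called lower. Erbb3 turned to -0.060 with size alone.

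The difference of effects, with 0 members called, gave 3 in DESeq2 and 3 under a filter of 1 count (Ereg, Hbegf and Tgfa in each), 2 at an adjusted p of 0.05, and 0 to 1 when a library was left out. Over all genes, calls of a higher MOF effect also went from 256 to 976 in DESeq2, 1112 under a filter of 1 count and 1026 at 0.05. Those of a lower one went from 170 to 518, 539 and 985 in the same order. Erbb3 turned to 0.0078 in DESeq2, 0.0079 with RLE factors and 0.034 under a filter of 1 count, and ranged from -0.19 to 0.14 without a library. Erbb2 turned to -0.053 with size alone. Between the stages, the 2 members called lower became 1 in DESeq2, 1 with RLE factors, 1 under a filter of 1 count and 0 with the 4 control libraries alone, and 0 to 2 without a library, while Areg was called higher under a filter of 1 count. With size alone Egfr turned to -0.19, Tgfa to -0.16 and Errfi1 to -0.25; without a library Egfr ranged from -0.15 to 0.43, Areg from -0.061 to 2.84 and Errfi1 from -0.13 to 0.31.

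In Kansl1 cKO no member was called by edgeR under any alternative. Epgn came nearest, at 1.39 with an edgeR adjusted p of 0.0121 under a filter of 1 count. That filter gave 73 genes higher and 117 lower. Errfi1, at 0.00, turned to -0.018 in DESeq2, -0.018 with RLE factors, -0.054 with upper-quartile factors, -0.056 with size alone and -0.039 with at least 10 counts. Without a library, ranges were -1.11 to 1.84 for Areg, -1.14 to 0.37 for Ereg, -1.04 to 0.17 for Hbegf, -0.16 to 0.46 for Egfr, -0.35 to 0.26 for Errfi1, -0.49 to 0.25 for Tgfa and -0.040 to 0.84 for Btc. The cause of these changes was not tested.

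Replicate numbers are shared by the groups. The study's methods speak of pairs of control and knockout samples, but neither they nor the labels say which libraries form a pair. Deviations of same-numbered samples correlated at 0.25 in the MOF and -0.25 in the Kansl1 experiment. A replicate block kept 6 members called in MOF cKO and 0 in Kansl1 cKO, and all genes called in MOF cKO went from 1395 and 1338 to 1903 and 2263. With the block, Kansl1 log2 fold changes turned to 0.088 for Areg and -0.014 for Errfi1. A crossed block, chosen after seeing the data, called 0 members and, of all genes, 0 higher and 1 lower in Kansl1 cKO, with Areg at 0.12 and Errfi1 at -0.016. Fits that leave an arm with 1 library assume that it varies like the others. Areg, Ereg and Btc had at most 156 counts in any E16.5 library, which limits their precision. Calls over all genes moved too. With size alone, 769 genes were higher and 2743 lower in MOF cKO, 219 and 245 in the difference of effects and 2144 and 4375 between the stages. Over all alternatives, genes higher ranged from 769 to 1943 in MOF cKO, 0 to 76 in Kansl1 cKO, 1 to 1112 in the difference and 1977 to 3525 between the stages, and genes lower from 1236 to 2743, 0 to 197, 0 to 985 and 1543 to 4375. The 1 and 0 in the difference came with the replicate block.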
